A study of Mus musculus with 8 samples.

Results

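Myc and 38 factors that build ribosomes were followed in mouse dendritic cells before and after maturation with lipopolysaccharide (LPS). These 39 genes, out of 20887 genes with a matched probe on the arrays, were listed by name when the difference between the LPS-treated and the immature cells was already known. That difference, its calls included, is therefore given for them as a description, and nothing is supported with it. All 39 had at least 1 probe, 53 probes in all. All 39 also passed the filter on dim probes, which kept the 12707 genes whose probe was clearly brighter than background throughout 1 group of 4 arrays or both. For 38 of them the probe was above background on all 8 arrays, and for Dkc1 on 2 of 4 LPS arrays and on all 4 immature arrays.

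The samples were 4 of mature dendritic cells, exposed overnight to LPS at 50 ng/ml and collected on day 7, and 4 of immature dendritic cells, collected on day 6. The labels give all of them as cells of female C57BL/6 mice. Bone marrow progenitors are named as the source, and monocytes as the cells cultured for 6 days in the cytokines IL-4 and GM-CSF, with GM-CSF at 10 ng/ml. None of the 8 samples is of cells kept to day 7 without LPS, so the LPS and the additional night in culture cannot be told apart. The labels do not say whether the 4 replicates of a group came from separate animals or cultures, so the spread between them may be technical. LPS comes from the envelope of certain bacteria and is sensed through Toll-like receptor 4.

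Each RNA was hybridised to its own one-colour Agilent array, and all 8 arrays lay on 1 slide read in 1 scan, with the LPS samples in slide row 2 and the immature samples in slide row 1. Slide row and treatment cannot be told apart. Replicates 1 to 4 of each group lay in slide columns 1 to 4, so replicate and slide column cannot be told apart either. Between 47.5% and 48.4% of the spots were well above background on the LPS arrays, against 47.7% to 51.3% on the immature arrays, and no spot was saturated. The 47.7% was on immature replicate 3, with 50.1% to 51.3% on the other immature arrays. The part of this difference in the levels of that array was not tested. The number of arrays limits the precision. Levels are log2 signals relative to the 75th percentile of each array, so a level of 1 is a signal at 2 times that percentile. Dendritic cell genes were bright in both groups: the summed signal of 13 markers, among them the antigen presentation genes Cd74, H2-Ab1 and H2-Eb1, was 1579 to 1860 times the 75th percentile on the LPS arrays and 1503 to 1600 times on the immature arrays. Markers of other cells were present too and moved with the treatment. The summed signal of 9 neutrophil genes was 248 to 455 on the LPS arrays and 742 to 885 on the immature arrays, with 9 of 9 lower after LPS. For 4 monocyte genes it was 7.43 to 18.1 on the LPS arrays and 31.9 to 58.7 on the immature arrays, and for 9 macrophage genes 345 to 406 on the LPS arrays and 404 to 480 on the immature arrays. Gene by gene, 3 of the 4 monocyte genes were called lower, and 5 of the 9 macrophage genes lower and 1 higher (median −1.36). Of the 13 dendritic cell genes 6 were called higher and 4 lower, from −7.30 to 2.65 log2. Over all tested genes 24.7% were called lower and 31.4% higher. Lymphocyte markers were partly detected: 2 of 5 B cell, 3 of 5 T cell and 1 of 4 NK cell genes passed the filter. Their summed signals were 0.52 to 1.48 (B cell), 3.92 to 4.42 (T cell) and 0.013 to 0.023 (NK cell) on the LPS arrays, and 0.71 to 2.57, 3.54 to 4.23 and 0.056 to 0.081 on the immature arrays. The NK cell values are those of 1 gene, and on the LPS arrays they lay below the lowest signal well above background. Genes that missed the filter in both groups included Cd79a and Pax5 of B cells, Cd3g and Cd8a of T cells, and Ncr1, Gzma and Eomes of NK cells. In bulk RNA, fewer cells of a type and less RNA per cell cannot be told apart, and the part of these other cells in the values below was not tested.

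Ribosomes are assembled in the nucleolus. RNA polymerase I transcribes the ribosomal RNA precursor, small nucleolar RNPs (snoRNPs) guide its chemical modification, and large sets of factors fold, cut and pack it with ribosomal proteins into the small and the large subunit. The transcription factor MYC is known to drive this programme in growing cells, where it binds E-box DNA motifs together with its partner MAX. Dendritic cells are known to stop dividing and to turn from antigen uptake to antigen presentation as they mature.

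After LPS the members of the list were lower. Of the 39 genes, 35 were called lower by limma's moderated test (Benjamini-Hochberg adjusted p under 0.05 over all tested genes), 0 were called higher and 4 did not pass. Among all tested genes 24.7% were called lower, 31.4% higher and 56.1% either way. Because the list was drawn up with this contrast known, nothing is read from that comparison. The median log2 fold change of the 39 genes was −1.12, with a range of −2.83 (Myc) to 0.03 (Noc3l), against a median of 0.06 over all tested genes. On 29 genes the 4 LPS arrays lay entirely below the 4 immature arrays, which 22.3% of all tested genes did, and on none did they lie entirely above, as 30.1% of all tested genes did. The 10 genes whose groups overlapped were Dkc1, Ftsj3, Rrs1, Bop1, Ebna1bp2, Wdr43, Rrn3, Noc4l, Nop14 and Noc3l. The genes are described by role.

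**Figure D1:**
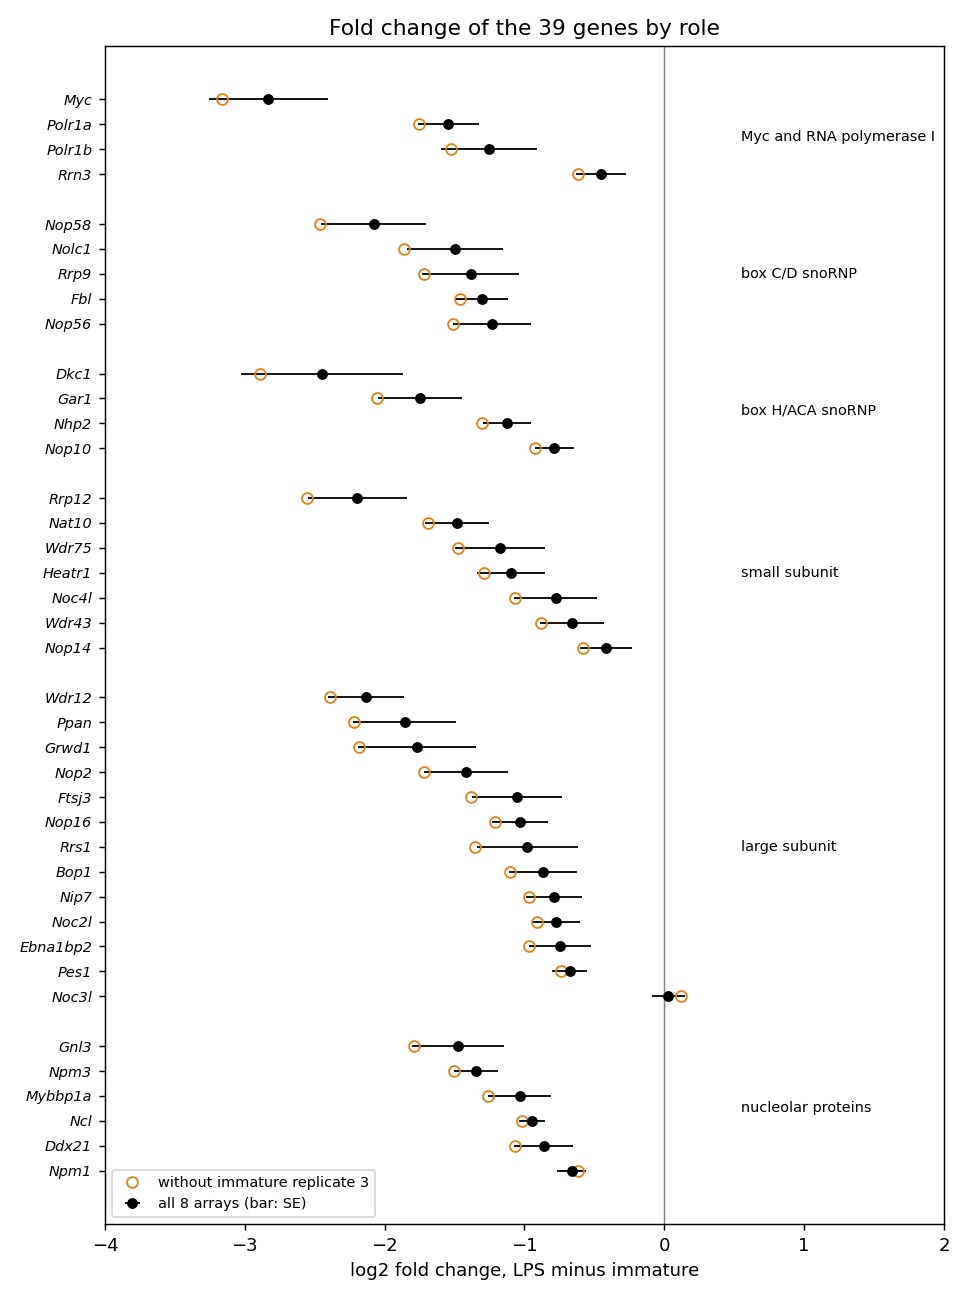
Log2 fold change (LPS minus immature) of the 39 genes on the horizontal axis, grouped by role. Filled points are the fit to all 8 arrays with its standard error, and open circles the fit without immature replicate 3. All points but Noc3l lie left of 0, and Myc lies furthest left at −2.83.

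Myc, the transcription factor, had levels of −1.83, −1.69, −0.54 and −0.51 on the 4 LPS arrays (replicates 1 to 4), against 2.20, 2.07, 0.70 and 1.80 on the 4 immature arrays. Every LPS array was below every immature array, and replicate 3 was the lowest of the immature arrays. The log2 fold change was −2.83 ± 0.42 (SE, n = 4 per group), a level 7.11-fold lower after LPS. Myc was also uneven among the LPS arrays, where replicates 3 and 4 were more than 1 log2 unit above replicates 1 and 2. The SD of its level was 0.72 over the LPS arrays and 0.68 over the immature arrays.

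RNA polymerase I was represented by its 2 largest subunits, which form the catalytic core, and by Rrn3, the factor that brings the polymerase to the ribosomal RNA promoter. Polr1a was lower by 1.55 log2 (−1.55 ± 0.22, SE), with levels of 0.67 to 0.89 on the LPS arrays and 1.67 to 2.76 on the immature arrays. Polr1b had −0.59, −0.63, −1.07 and −0.32 on the LPS arrays, against 1.15, 1.28, −0.21 and 0.17 on the immature arrays. The groups did not overlap for Polr1b, but the highest LPS array, at −0.32, came close to immature replicate 3, at −0.21. Its log2 fold change was −1.25 ± 0.34 (SE), and its call was lost with replicates 1 and 2 of each group averaged. Rrn3 did not pass, with −0.45 ± 0.18 (SE) and levels of 1.36 to 1.58 on the LPS arrays and 1.45 to 2.25 on the immature arrays.

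The box C/D snoRNPs, which place methyl groups on ribosomal RNA, were represented by Fbl (the methyltransferase fibrillarin), the core proteins Nop56 and Nop58, Rrp9, a protein of the U3 snoRNP, and Nolc1, a nucleolar chaperone of snoRNPs. All 5 were called lower and in all 5 the groups were separate, though the call of Rrp9 was lost with replicates 1 and 2 of each group averaged. Nop58 had 0.95, 1.04, 1.13 and 1.51 on the LPS arrays, against 3.84, 3.86, 2.08 and 3.16 on the immature arrays. Immature replicates 1 and 2 were nearly equal and highest, and replicate 3 was more than 1 log2 unit below them. The log2 fold change of Nop58 was −2.08 ± 0.37 (SE), which is 4.22-fold lower after LPS. The other members of this role had −1.49 ± 0.34 (Nolc1), −1.38 ± 0.35 (Rrp9), −1.30 ± 0.18 (Fbl) and −1.23 ± 0.28 (Nop56).

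The box H/ACA snoRNPs convert uridine to pseudouridine, and consist of the enzyme dyskerin (Dkc1) with Gar1, Nhp2 and Nop10. All 4 were called lower. Dkc1 had −3.89, −4.16, −4.79 and −2.48 on the LPS arrays, against −0.86, −0.62, −2.70 and −1.34 on the immature arrays. LPS replicate 4 lay above immature replicate 3, so the groups overlapped, and 2 of the 4 LPS values were not well above background. The fitted log2 fold change of −2.45 ± 0.58 (SE) therefore rests partly on dim spots. Gar1 was lower by −1.75 ± 0.30 with much tighter LPS arrays, 2.29 to 2.50, against 3.21 to 4.73 on the immature arrays. Nhp2 had −1.12 ± 0.17 and Nop10 −0.79 ± 0.14, both with separate groups.

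**Figure D2:**
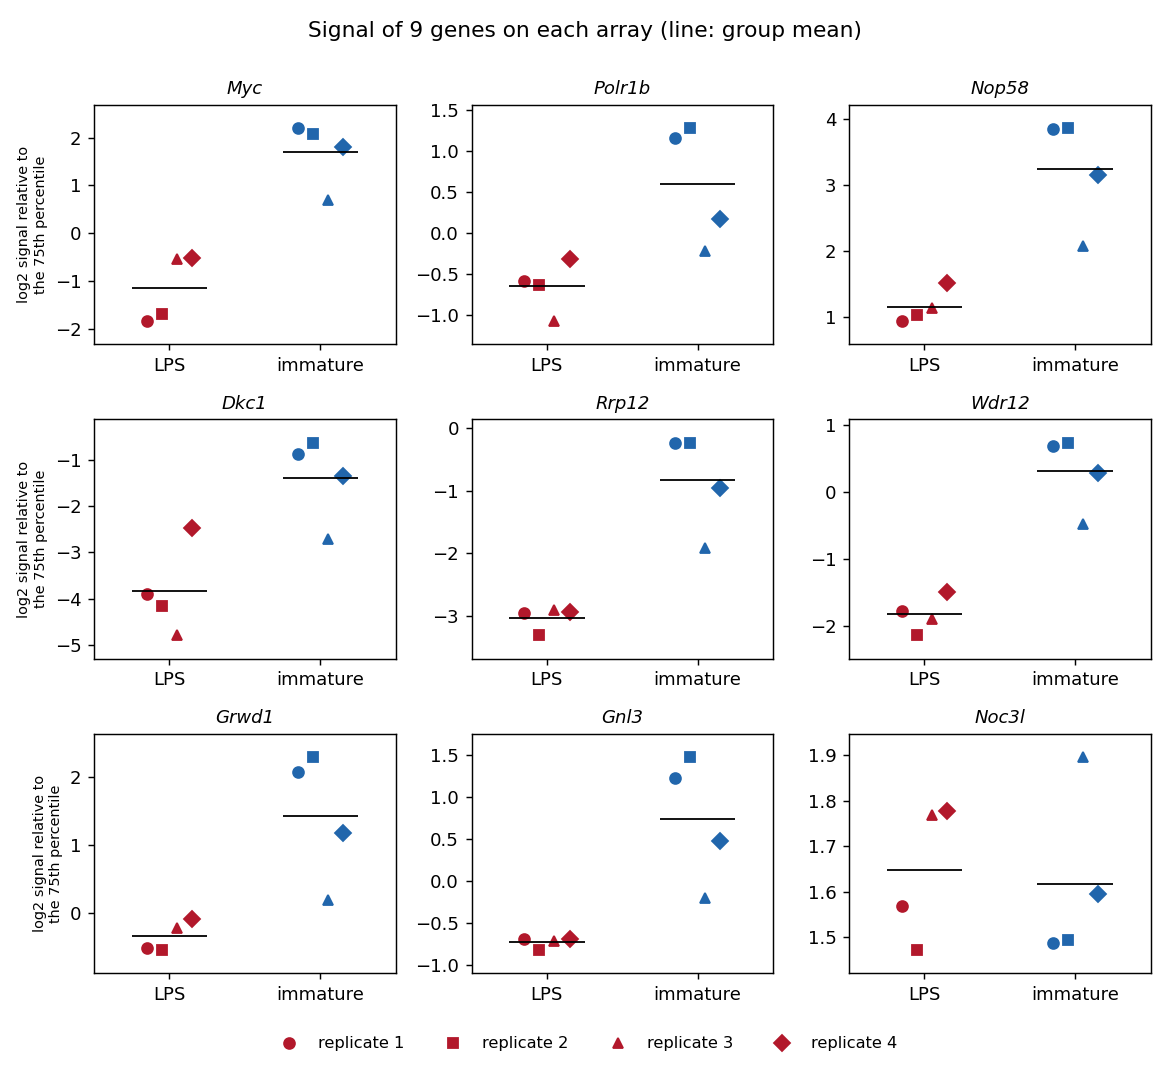
Log2 signal relative to the 75th percentile on each array for 9 genes, LPS arrays in red and immature arrays in blue, with marker shape for the replicate number and a line at the group mean. In 8 of the panels immature replicate 3 (triangle) is the lowest immature array, and in the Noc3l panel it is the highest.

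A group of 7 members acts on the small subunit. Heatr1, Wdr43 and Wdr75 belong to a complex that joins transcription of ribosomal RNA to its first processing steps, Nop14 and Noc4l bind each other within the small subunit precursor, Nat10 acetylates its RNA, and Rrp12 takes part in subunit export and late maturation. Of these 7, 5 were called lower and 2, Noc4l and Nop14, did not pass. Rrp12 had −2.96, −3.32, −2.90 and −2.94 on the LPS arrays, against −0.23, −0.24, −1.91 and −0.96 on the immature arrays. Its groups lay about 1 log2 unit apart at their nearest points, with a log2 fold change of −2.20 ± 0.35 (SE). Nat10 (−1.48 ± 0.23), Wdr75 (−1.17 ± 0.32) and Heatr1 (−1.10 ± 0.24) also had separate groups. Wdr43 had −0.66 ± 0.23 and overlapped. The calls of Wdr75 and Wdr43 were lost with replicates 1 and 2 averaged. Noc4l had −0.78 ± 0.30 and Nop14 −0.42 ± 0.19, with immature replicate 3 among the LPS arrays for Noc4l and marginally below all of them for Nop14.

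Of 13 members that act on the large subunit, 12 were called lower. The PeBoW complex, needed to process the large subunit RNA, is made of Pes1, Bop1 and Wdr12, and its members differed in size. Wdr12 had −1.77, −2.14, −1.89 and −1.50 on the LPS arrays, against 0.69, 0.74, −0.48 and 0.28 on the immature arrays. All LPS arrays of Wdr12 were below all immature arrays by 1 log2 unit or more, and its log2 fold change was −2.13 ± 0.27 (SE). Bop1 had −0.87 ± 0.24 and Pes1 −0.67 ± 0.12. Grwd1, a chaperone of the ribosomal protein L3, had −0.51, −0.54, −0.21 and −0.09 on the LPS arrays, against 2.07, 2.29, 0.19 and 1.18 on the immature arrays. It had the largest immature spread of the 39 genes (SD 0.96, n = 4), and its log2 fold change was −1.77 ± 0.42 (SE).

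The other large subunit factors called lower ranged from −1.86 ± 0.37 (Ppan) to −0.75 ± 0.22 (Ebna1bp2). Between them were Nop2 (−1.42 ± 0.30), a methyltransferase of ribosomal RNA, Ftsj3 (−1.06 ± 0.32), Nop16 (−1.03 ± 0.20), Rrs1 (−0.98 ± 0.36), which helps to bring in the small ribosomal RNA of the large subunit, Nip7 (−0.79 ± 0.20) and Noc2l (−0.77 ± 0.17). The call of Rrs1 was lost when any 1 of the 7 arrays other than immature replicate 3 was left out, as was that of Wdr43. The call of Ftsj3 was lost without LPS replicate 3, immature replicate 1 or immature replicate 2, and that of Ebna1bp2 without LPS replicate 3 or immature replicate 1. With replicates 1 and 2 of each group averaged, the calls of Rrs1, Ftsj3, Ebna1bp2 and Bop1 were lost. Noc3l, the partner of Noc2l in yeast, was the 1 gene of the list with a log2 fold change above 0. It had 1.57, 1.47, 1.77 and 1.78 on the LPS arrays, against 1.49, 1.49, 1.90 and 1.59 on the immature arrays. The groups overlapped fully, the log2 fold change was 0.03 ± 0.12 (SE), and its sign turned with scaling to the array median, to detected probes or with no scaling.

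All 6 abundant or multifunctional nucleolar proteins were called lower and had separate groups. Gnl3, or nucleostemin, a GTP-binding protein of dividing cells, had −0.69, −0.82, −0.71 and −0.70 on the LPS arrays, against 1.22, 1.48, −0.21 and 0.47 on the immature arrays. The LPS arrays spanned 0.13 log2 units and the immature arrays 1.69. The log2 fold change of Gnl3 was −1.47 ± 0.33 (SE). Npm3 had −1.35 ± 0.16, Mybbp1a, a repressor partner of MYB that also acts on polymerase I, −1.03 ± 0.23, and the RNA helicase gene Ddx21 −0.86 ± 0.21, a call lost with replicates 1 and 2 averaged.

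Ncl and Npm1 encode nucleolin and nucleophosmin, 2 of the most abundant nucleolar proteins, and were singled out after their values had been seen. Ncl had 4.36, 4.33, 4.34 and 4.26 on the LPS arrays, against 5.34, 5.46, 5.05 and 5.22 on the immature arrays, a log2 fold change of −0.95 ± 0.10 (SE). Npm1 had 6.07, 6.14, 5.88 and 5.80 on the LPS arrays, against 6.55, 6.53, 6.77 and 6.70 on the immature arrays, a log2 fold change of −0.66 ± 0.10 (SE). For Npm1 immature replicate 3 was the highest immature array, the reverse of its place for Ncl. Npm1 also had the smallest immature SD of the list (0.12).

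More than 1 probe was present for 10 members, with 14 probes beside those used above. All 14 were lower after LPS, from −1.97 (Nolc1) to −0.68 (Npm1), and each had a larger decrease than the probe that represents its gene. The size of a decrease therefore varied with the probe: Ncl had −0.95 on the probe used and −1.86 on the other, and Ddx21 −0.86 and −1.61. These probes share their arrays and their RNA and add no replicates.

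The spread among the immature arrays was wide for these genes. Describing this spread was part of the rule that listed them, with earlier results of these data known. The spread, and the order of the arrays given below, are therefore a description, and nothing is supported with them. The SD over the 4 LPS arrays had a median of 0.16 log2 over the 39 genes, and that over the 4 immature arrays a median of 0.51. Over all tested genes the medians were 0.13 on LPS arrays and 0.18 on immature arrays. The LPS arrays had the smaller SD for 35 of the 39 genes, and for 61.4% of all tested genes. The range from the lowest to the highest array exceeded 1 log2 unit, 2-fold in signal, for 2 of the 39 genes on the LPS arrays, Myc and Dkc1, and for 26 on the immature arrays. Its median was 0.35 on the LPS arrays and 1.12 on the immature arrays. By role, the immature SD ran from 0.28 to 0.93 for the H/ACA proteins, 0.33 to 0.83 for the C/D proteins, 0.41 to 0.80 for the small subunit factors and 0.16 to 0.96 for the large subunit factors.

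**Figure D3:**
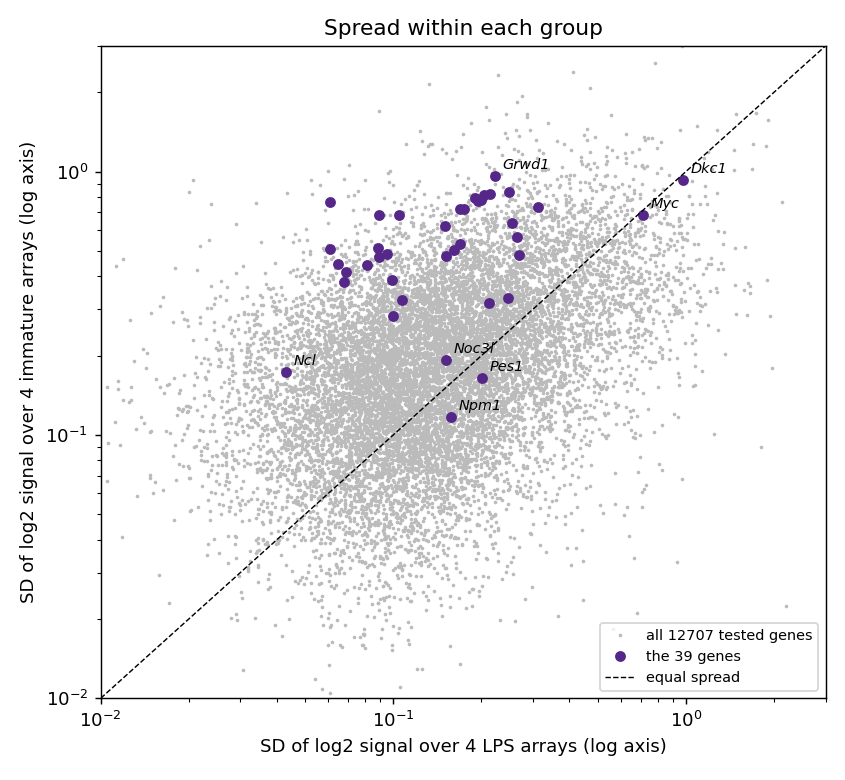
SD of the log2 signal over the 4 LPS arrays (horizontal) and over the 4 immature arrays (vertical), both on log axes, for all 12707 tested genes in grey and the 39 genes in purple. Most purple points lie above the line of equal spread, and Npm1, Pes1, Myc and Dkc1 lie below it.

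This spread had 1 order. Immature replicates 1 and 2 were close to each other, replicate 4 was lower and replicate 3 lowest. That exact order, with both of replicates 1 and 2 above replicate 4 and replicate 4 above replicate 3, was found in 36 of the 39 genes, against 27.1% of all tested genes, and replicate 3 was lowest in 37 of the 39, against 40.0% of all tested genes. The median deviation from the mean of the immature group was 0.35 for replicate 1, 0.46 for replicate 2, −0.69 for replicate 3 and −0.09 for replicate 4. Over all tested genes these deviations were between −0.02 and 0.02. The median distance between replicates 1 and 2 over the 39 genes was 0.11 log2 and the largest 0.25 (Gnl3). The exceptions were Npm1 and Noc3l, in which replicate 3 was the highest immature array, and Npm3, in which replicate 3 was lowest but replicate 4, at −1.02, lay slightly above replicate 1, at −1.09.

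For most of the 39 genes immature replicate 3 lay between the other immature arrays and the LPS mean. On its way from the mean of the other 3 immature arrays to the LPS mean it had covered a median of 62.4% over the 35 members called lower, against 25.7% over all 3136 genes called lower. For 35 of the 39 genes its level was above the LPS mean, among them Npm1 and Noc3l, in which it was the highest immature array. It was below the LPS mean for Rrn3, Noc4l, Nop14 and Rrs1. It stood apart on other genes as well. Over 11939 genes above background on all 8 arrays, the scaled median absolute deviation of its differences from another immature array was 0.28 to 0.42 log2. Between LPS arrays it was 0.13 to 0.24, and between the other immature arrays 0.11 to 0.24. Replicates 1 and 2 were the closest pair of both groups, at 0.13 (LPS) and 0.11 (immature), which is more than the 0.06 to 0.08 between 2 spots of a probe on the same array. They were counted as separate samples.

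**Figure D4:**
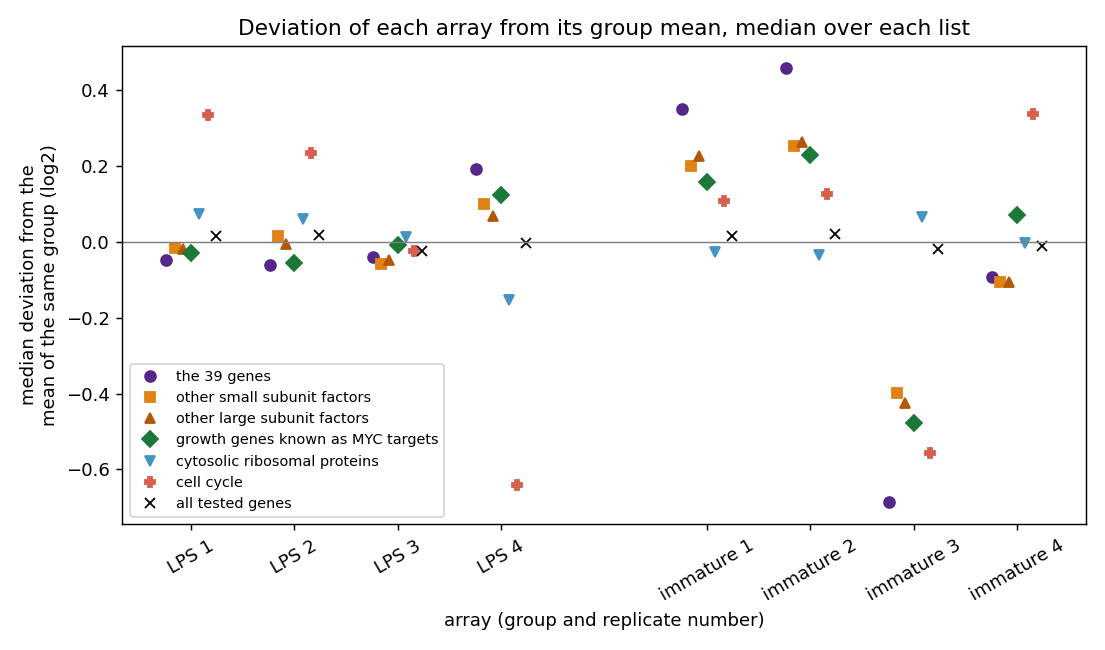
Median deviation of each array from the mean of its own group (log2, vertical) for 7 sets of genes, arrays along the horizontal axis with LPS arrays on the left. The 39 genes sit at 0.35 and 0.46 on immature replicates 1 and 2 and at −0.69 on replicate 3. All tested genes, which the scaling tends to hold near 0, stay within 0.02 of 0 after rounding.

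Other values moved along with this order in part. Cell cycle genes deviated by 0.11, 0.13, −0.56 and 0.34 on immature replicates 1 to 4, so they shared the low replicate 3 but had replicate 4 highest. The summed signal of 6 progenitor markers was 20.9, 21.4, 12.002 and 21.7 on immature replicates 1 to 4, and that of 4 monocyte markers 31.9, 40.3, 58.7 and 47.9. Gene by gene, replicate 3 was lowest in 3 of the 6 progenitor genes, against 40.0% of all tested genes. Neutrophil markers (742 to 885) and dendritic cell markers (1503 to 1600) had replicate 3 within the range of the others. Summed macrophage markers were at 449, 447, 480 and 404 on immature replicates 1 to 4, highest on replicate 3 as summed monocyte markers were. Over the 9 macrophage genes the median deviation was 0.09, 0.02, 0.08 and −0.11, so by that measure replicate 3 was not highest. The part of these cells in the spread was not tested. On the LPS arrays the 39 genes deviated by −0.05, −0.06, −0.04 and 0.19, with 34 of 39 genes above their group mean on LPS replicate 4, where cell cycle genes were at −0.64.

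Without immature replicate 3, 38 of the 39 genes were called lower, all but Noc3l, where 28% of all tested genes were. The median log2 fold change was then −1.38 and the median immature SD 0.31. Rrn3 (−0.61), Noc4l (−1.07) and Nop14 (−0.58) passed in that fit. The LPS arrays then lay entirely below the other 3 immature arrays for 38 of the 39 genes, against 28.9% of all tested genes. Replicate 3 was singled out after it had been seen as the lowest immature array in most of these genes. More calls, a larger decrease and a smaller spread without it follow from that choice. With another array left out, 31 to 33 of the 39 genes were called lower, beside 21.5% to 22.8% of all tested genes. In 26 of the 39 genes the call of a decrease was made under all 17 alternative settings tried as well as in the main analysis, and so it was for 16.5% of all tested genes.

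The wider pathway, from lists that do not contain the 39 genes, was lower in many of its members and not in all. These lists, like the 39 genes, were chosen with earlier results of these data known. Their counts and p-values, here and below, are therefore a description, and nothing is supported with them. Of 48 other small subunit factors tested, 25 fell, 5 rose and 18 did not pass, with a median of −0.59 log2. Of 49 other large subunit factors, 27 fell, 6 rose and 16 did not pass, with a median of −0.45. These counts, and those of the lists below, stand beside the 24.7% of all tested genes called lower and the 31.4% called higher. With replicates 1 and 2 of each group averaged, 18 of the 48 small subunit and 10 of the 49 large subunit factors were called lower, beside 18.7% of all tested genes. Utp20, a large scaffold of the small subunit precursor, fell by 1.77 log2 (−1.77 ± 0.26 SE, limma adjusted p = 0.000663), and Tsr1, a late small subunit factor, had −1.62 ± 0.36 (limma adjusted p = 0.00537). Rrp15, a nucleolar factor of the large subunit, fell by 1.86 log2 (limma adjusted p = 0.00197) and Nle1, a large subunit factor, by 1.70 (limma adjusted p = 0.00126).

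Some assembly factors went the other way. Tma16, a large subunit factor, rose by 1.53 ± 0.27 log2 (SE, limma adjusted p = 0.00168), with 4.65 to 5.40 on the LPS arrays and 2.81 to 4.05 on the immature arrays. Rcl1, which acts in small subunit RNA cleavage, rose by 1.39 ± 0.23 (limma adjusted p = 0.00122). These other factors had the immature order too: replicate 3 was lowest in 41 of the 48 small subunit genes and 44 of the 49 large subunit genes, with median deviations of −0.40 and −0.43 on that array. In the falling genes Rrp15 and Nle1, as in the rising genes Tma16 and Rcl1, immature replicate 3 was the lowest immature array, so for the rising genes it lay furthest from the LPS arrays.

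The remaining machinery of RNA polymerase I did not share the decrease of Polr1a as a group. Leaving out Ubtf, of 9 tested genes 2 fell, 2 rose and 5 did not pass, with a median of −0.05. Of all tested genes 24.7% were called lower and 31.4% higher. Polr1e, a polymerase subunit, fell by 0.92 log2 (limma adjusted p = 0.0120), a call lost with replicates 1 and 2 averaged. Baz2a, part of a complex that silences ribosomal RNA genes, rose by 0.57 ± 0.10 (SE, limma adjusted p = 0.00175). Ubtf, the factor that keeps ribosomal RNA genes open, gave opposite answers on its 2 probes, 0.69 on the brighter and −1.50 on the other, so no direction is given and it is not counted. Of 13 genes of the RNA exosome, which trims ribosomal RNA ends, 8 fell, 3 rose and 2 did not pass, and 5 fell with replicates 1 and 2 averaged or without immature replicate 2. Exosc6 fell by 1.37 log2 (limma adjusted p = 0.00602) and Dis3, a catalytic subunit, by 1.13 (limma adjusted p = 0.00918), and Exosc9 rose by 0.50 ± 0.10 (limma adjusted p = 0.00235), a call lost with no scaling.

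Other genes known as targets of MYC, chosen for growth outside the ribosome, were 22 of 30 lower, 5 higher and 3 not passing, with a median of −0.73. Beside them, 24.7% of all tested genes were lower and 31.4% higher. Srm, the enzyme that makes spermidine, had 0.53, 0.37, 1.39 and 1.52 on the LPS arrays, against 3.99, 4.14, 2.21 and 3.40 on the immature arrays, and fell by 2.48 log2 (−2.48 ± 0.45 SE, limma adjusted p = 0.00191). Its LPS replicates 3 and 4 were the higher ones, as they were for Myc. The list as a whole did not share this, with median deviations of −0.03, −0.06, −0.01 and 0.12 on LPS replicates 1 to 4. A link of Srm to Myc was not tested. Ctps, the CTP synthase gene, fell by 2.45 log2 (limma adjusted p = 0.00141). Ccnd2, encoding cyclin D2, rose by 1.40 ± 0.19 (SE, limma adjusted p = 0.000475).

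In the network of MYC partners and antagonists, 3 of 11 tested genes fell, 3 rose and 5 did not pass. These shares were near those of all tested genes, 24.7% lower and 31.4% higher, so the counts set the network apart in neither direction. Mxd1, which competes with MYC for MAX, had 4.38, 4.32, 4.75 and 4.27 on the LPS arrays, against 2.39, 2.42, 3.17 and 2.81 on the immature arrays, and rose by 1.73 ± 0.19 (SE, limma adjusted p = 0.000136). Among the immature arrays Mxd1 was highest on replicate 3 and Myc lowest there. Of the 11 genes of the network, 6 were above their immature mean on that array, and a link between Mxd1 and Myc was not tested. Mycl, a relative of Myc, fell by 1.94 log2 (limma adjusted p = 0.000956). Mxd3, of the same family as Mxd1, had a fitted log2 fold change of −3.70 ± 0.46 (limma adjusted p = 0.000248) with 2 of 4 LPS arrays above background.

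**Figure D5:**
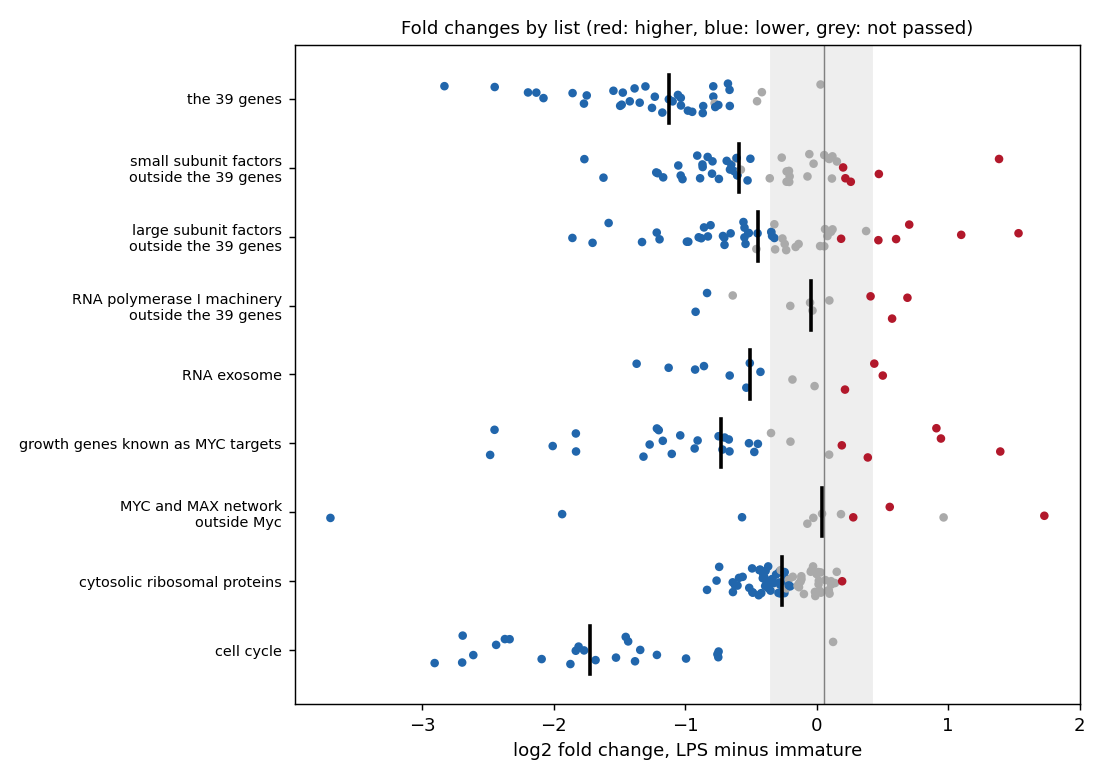
Log2 fold change (LPS minus immature, horizontal) of each tested gene in the 39 genes and in 8 lists, coloured red where higher, blue where lower and grey where the test was not passed, with a black bar at the list's median and grey shading between the quartiles of all tested genes. The 39 genes have a median of −1.12 and the cytosolic ribosomal proteins one of −0.26. Ubtf is drawn in the RNA polymerase I list by its brighter probe, as higher, and is part of that list's median.

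Cytosolic ribosomal protein genes, the parts that these factors assemble, moved less. Of 78 tested, 45 were called lower, 1 higher and 32 did not pass, with a median of −0.26 log2 and a range of −0.83 to 0.19. The shares over all tested genes were 24.7% lower and 31.4% higher. Rpl3 had −0.83 ± 0.09 (SE, limma adjusted p = 0.000138) and Rpl5 −0.76 ± 0.10 (limma adjusted p = 0.000347). Rps24 had 0.19 ± 0.06, a call lost under 12 of 17 alternatives, in 1 of which the sign turned. The count of falling genes depended on the scaling, with 57 under scaling to the array median and 62 with no scaling. Many processed pseudogenes resemble these genes, and how far a probe also reads them is uncertain. Their spread was small, with a median immature SD of 0.05, and replicate 3 was lowest in 3 of 78. Among 24 tested genes of cell division 23 fell, with a median of −1.73, and 1 did not pass. Ccnb2, encoding cyclin B2, fell by 2.90 log2 (limma adjusted p = 0.00128) and Cdc20, an activator of mitotic exit, by 2.70 (limma adjusted p = 0.000304).

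Since 35 of the 39 genes were called lower, the DNA around their starts was searched for the E-box CACGTG, the motif known to be bound by MYC and MAX, which reads the same on both strands. RefSeq promoter windows on the mouse build GRCm38.p6, 250 bases before to 50 after each start, were at hand for 33 of the 39 genes, and none for Myc, Npm1, Fbl, Bop1, Rrp12 and Rrs1. The motif was found in 6 of the 33 genes (18.2%), against 8.09% of 27025 genes with such windows and 11.5% of 10190 tested genes with one. The looser form CANNTG, which contains it, was found in 63.6% of the 33 genes and 74.99% of all genes. The 33 genes' windows had a median GC content of 57.8%, against 52.7% for all windows. A match is a description of letters and not a bound site.

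Rrn3 held 2 copies of the motif, the first bases of which lie 215 and 48 bases before its start, and Nop2 held 1 copy that begins 60 bases before its start. The 250 bases before the start of both are shown, 5′ to 3′, with the motif in capitals.
Rrn3 (chr16:13780449-13780698, plus strand): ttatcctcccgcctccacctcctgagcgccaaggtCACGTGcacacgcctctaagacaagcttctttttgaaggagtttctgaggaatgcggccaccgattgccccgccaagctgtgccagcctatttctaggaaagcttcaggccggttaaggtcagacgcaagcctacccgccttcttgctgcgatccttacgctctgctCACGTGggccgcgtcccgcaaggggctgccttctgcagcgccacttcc
Nop2 (chr6:125131633-125131882, plus strand): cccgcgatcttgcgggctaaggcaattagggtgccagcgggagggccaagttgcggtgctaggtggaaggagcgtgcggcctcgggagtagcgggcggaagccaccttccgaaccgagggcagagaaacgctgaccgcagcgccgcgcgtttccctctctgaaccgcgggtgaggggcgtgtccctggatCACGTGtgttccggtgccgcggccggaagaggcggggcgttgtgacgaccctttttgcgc
In Pes1, Wdr43, Grwd1 and Mybbp1a the motif begins 3, 18, 35 and 41 bases into the transcript, and 30 bases around it are shown to compare its neighbouring letters.
Pes1 (chr11:3963965-3963994, plus strand): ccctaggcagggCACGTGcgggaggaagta
Wdr43 (chr17:71616220-71616249, plus strand): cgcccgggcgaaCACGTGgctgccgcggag
Grwd1 (chr7:45830740-45830769, minus strand): aagggccggagtcgCACGTGtgaaaccgga
Mybbp1a (chr11:72441347-72441376, plus strand): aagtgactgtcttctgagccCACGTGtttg
The median log2 fold change was −0.85 over the 6 genes with the motif, from −1.77 (Grwd1) to −0.45 (Rrn3), and −1.17 over the 27 genes without it. Nothing is read from these medians, as the members were listed with this contrast known. The part of MYC was not tested. Nop58, lower by 2.08 log2, is shown as an example with no copy in the 250 bases before its start.
Nop58 (chr1:59684756-59685005, plus strand): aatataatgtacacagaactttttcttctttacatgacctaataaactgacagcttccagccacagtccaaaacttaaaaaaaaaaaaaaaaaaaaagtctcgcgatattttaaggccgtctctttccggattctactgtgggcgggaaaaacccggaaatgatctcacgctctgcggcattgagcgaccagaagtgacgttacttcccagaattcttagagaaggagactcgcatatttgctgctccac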

How the data were processed

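RNA of 4 LPS-treated and 4 immature samples was hybridised to one-colour Agilent arrays and read with Feature Extraction, per the file headers. The authors deposited the scanner output with each spot's processed signal, a background-subtracted intensity. From these intensities, log2 values minus each array's 75th percentile over spots that are no controls were computed here. Spots marked as outliers were left out, and spots of a probe were averaged. Of 55681 probes, 27509 were matched through their RefSeq accession to 20887 genes, 5512 of them with more than 1 probe. A gene was represented by its probe with the highest mean. limma 3.58.1 (R 4.3.3) was fitted to 12707 genes with group as the only term, with Benjamini-Hochberg adjustment over all of them, and tested on simulated data. The members and lists were chosen with earlier results of these data known. Values are given per array for Myc and, in each role, for the genes with the largest rise, the largest fall and the largest immature SD. From each pathway list the text names the 2 largest called genes in the commoner direction and 1 other. Replicate numbers were not used as pairs in the main fit: correlations of same-numbered deviations were 0.19, 0.02, 0.05 and −0.10. These values cannot exclude a shared animal or culture, so whether the numbers pair the samples is unknown. Promoters are from RefSeq. Protein sequences were not analysed here. Alternatives were other scalings, background correction, probe rules, a replicate block, and leaving out each array.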

Additional observations from a re-analysis of the deposited data

Results flagged for a closer look

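Of 166 groups of 4 arrays examined, 4 held 1 array far from the other 3 for the spread of that group, and chance alone gives such a mark in about 1 in 20 groups. Rrp12 was at −3.32 on LPS replicate 2, with −2.96 to −2.90 on the other LPS arrays. Gnl3 was at −0.82 on LPS replicate 2, with −0.71 to −0.69 on the others. C1qb, a macrophage marker, was at 4.80 on immature replicate 4, with 5.22 to 5.30 on the others. Kit, a progenitor marker, was at 0.24 on immature replicate 2, with 0.73 to 0.77 on the others.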

How the results depend on the processing

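Of the 39 genes, 35 were called lower (24.7% of all tested genes), with 31 to 38 when 1 array was left out (21.5% to 28% of all tested genes), 26 with replicates 1 and 2 averaged (18.7%), and 38 with scaling to the array median (32.8%) or none (35%). The median log2 fold change of the 39 genes was −1.38 to −0.98 with 1 array left out and −1.33 to −0.99 otherwise, and their median immature SD 0.31 to 0.62 with 1 array left out. Genes changed numbered 7124 of 12707 tested, and 10759 of 20887 when dim probes were kept. They numbered 5425 with replicates 1 and 2 averaged and 6182 to 7898 with 1 array left out. The large subunit list had 10 genes called lower with replicates 1 and 2 averaged and 20 to 34 with 1 array left out, and the RNA exosome 5 and 5 to 9. The looser motif was in 63.6% of the genes with a promoter window. The sign of Noc3l turned to −0.15 (array median), −0.18 (no scaling) and −0.022 (detected probes), and with 1 array left out Noc3l ranged from −0.015 (without immature replicate 1) to 0.12 (without immature replicate 3). The sign of Rps24 turned to −0.014 with no scaling and that of Ubtf to −0.40 with its probes averaged. The cause was not tested. Scaling to the array median moved the median of all genes by −0.17 and no scaling by −0.21, and the share of changed genes that were higher was 56.0% in the main analysis, 38.5% with the array median, 35.3% with no scaling and 70.9% with dim probes kept. With the replicate block, 6606 genes changed and 35 of the 39 genes were lower; 1 of 4 LPS arrays correlated best with the immature array of its own number. Below background, values such as those of Dkc1 after LPS are limited by the dimness of the spots.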
